A study of Mus musculus with 3 samples.

Results

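The chemokine receptor set comprised 8 genes, Cxcr2, Cxcr4, Cxcr3, Ccr1, Ccr2, Ccr7, Ccr9 and Cx3cr1. They were chosen by name, and every probe set that the platform annotation pairs with 1 of these symbols alone was taken, which gave 17 of the 34945 single-symbol probe sets on the arrays, or 8 of 18193 genes. Cxcr2, Cxcr4, Cxcr3 and Ccr7 had 1 probe set each, Ccr1 and Cx3cr1 had 2, Ccr2 had 4 and Ccr9 had 5. RNA came from bone marrow cells of mice aged 10 weeks, sorted as positive for Sca-1 and negative for lineage markers, a fraction that holds haematopoietic stem and progenitor cells. The 3 groups were C57BL/6J wild type mice without a transgene and mice of 2 transgenic lines on the same strain, called Line 6 and Line 3. Both carry the construct written Tg(Ly6a-KDM1A*v2, a name that joins the Sca-1 gene Ly6a to KDM1A, the gene of the histone demethylase LSD1. With 1 array per group, each difference below compares 2 arrays and carries neither a replicate error nor a p-value. The number of mice per sample, their sex, the expression of the transgene by cell type and the manner in which the lines were founded were not stated in what was used here.

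Chemokine receptors are membrane proteins with several transmembrane helices that couple to inhibitory G proteins and steer cells along gradients of small secreted chemokines. In bone marrow the receptor Cxcr4, with its ligand Cxcl12, keeps stem cells, progenitors and immature neutrophils in place, whereas Cxcr2 drives mature neutrophils out into blood. Ccr1 and Ccr2 act in neutrophil and monocyte traffic, Ccr9 and Ccr7 guide lymphoid progenitors and T cells to and within lymphoid organs, Cxcr3 marks activated T cells and NK cells, and Cx3cr1 marks monocytes and some macrophages and dendritic cell precursors.

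Promoters are shown for the receptors whose intensities were furthest apart between arrays, Cxcr2 and Ccr1, and for Ccr9. The last was brightest on the Line 6 array, within 2-fold of Line 3. The sequences are from RefSeq (GRCm38.p6) and run 5′ to 3′ on the gene's strand from 250 bases before to 50 bases after the annotated start. Promoter entries were found for 7 of the 8 receptors. Capitals mark matches, on either strand, to the PU.1 core GAGGAA, the RUNX core TGTGGT, the C/EBP core TTNNGNAA, the E-box CACCTG and the GATA core AGATAA.
Cxcr2 promoter, chr1:74153744-74154043, plus strand: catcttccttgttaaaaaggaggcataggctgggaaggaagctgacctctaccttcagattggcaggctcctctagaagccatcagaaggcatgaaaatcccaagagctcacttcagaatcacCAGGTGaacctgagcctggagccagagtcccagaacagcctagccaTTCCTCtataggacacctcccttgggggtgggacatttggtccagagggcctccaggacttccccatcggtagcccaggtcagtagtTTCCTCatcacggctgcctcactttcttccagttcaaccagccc
Ccr1 promoter, chr9:123968643-123968942, minus strand: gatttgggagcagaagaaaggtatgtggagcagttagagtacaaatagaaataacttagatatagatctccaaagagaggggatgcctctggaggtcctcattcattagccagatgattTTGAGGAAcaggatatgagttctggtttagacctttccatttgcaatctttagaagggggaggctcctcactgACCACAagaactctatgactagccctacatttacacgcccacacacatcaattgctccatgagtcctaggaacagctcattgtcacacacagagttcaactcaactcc
Ccr9 promoter, chr9:123766961-123767260, plus strand: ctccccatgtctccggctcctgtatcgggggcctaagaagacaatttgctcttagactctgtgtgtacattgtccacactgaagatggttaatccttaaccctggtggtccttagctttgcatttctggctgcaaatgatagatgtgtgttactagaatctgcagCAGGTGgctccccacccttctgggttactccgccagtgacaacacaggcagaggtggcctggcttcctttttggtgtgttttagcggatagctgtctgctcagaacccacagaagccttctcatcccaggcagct

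The Cxcr2 window held 2 matches to the PU.1 core and 1 to the E-box. In the Ccr1 window 1 PU.1 match overlapped 1 C/EBP match, giving a single capital run, and 1 RUNX match stood apart from them. The Ccr9 window held 1 E-box match and none to the PU.1, RUNX, C/EBP or GATA letters. Among the windows not printed, that of Cxcr3 held 1 PU.1, 2 RUNX, 1 C/EBP and 1 E-box match. That of Ccr2 held 1 C/EBP and 1 GATA match and none to the PU.1 or RUNX cores. The Cxcr4 window held 1 C/EBP match and that of Cx3cr1 1 RUNX match. The PU.1 core was thus matched only in the windows of Cxcr2, Ccr1 and Cxcr3. Whether matches go with the direction of the receptors' differences was not tested. Such letters are common. Of 32851 promoter windows of the same length, 28.3% held the PU.1 core, 16.8% the RUNX core, 40.7% the C/EBP core, 20.2% the E-box and 11.2% the GATA core. The matches describe the sequence and were not tested as binding sites.

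The arrays were first checked as a whole. Median intensities over all 45037 probe sets were 96.2 for wild type, 116 for Line 6 and 99.0 for Line 3, on a linear scale. A prior scaling between arrays was not stated and is inferred from their nearly equal trimmed means. The brighter probe set of Kdm1a, which encodes LSD1, read 2104, 2575 and 2979 in that order of groups, and its other set 916, 911 and 1482. Whether either set also detects the transgene is not given. Xist, the non-coding RNA that coats an inactive X, read 2729, 6152 and 5155 on its brightest probe set, and the Y-linked Eif2s3y read 2325, 978 and 1031. Wild type and transgenic arrays therefore differed in sex-linked RNA as well as in genotype, and the part of sex in the differences below cannot be told apart from that of genotype. Of 14 listed stem cell markers 12 were measured, with summed intensities of 2864, 5425 and 6619, and Ly6a itself is not analysed here.

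Differences were taken of log2(intensity + 16), a scale that understates the change of dim genes. A gene was represented by its brightest probe set, and 10866 genes reached their array's median intensity on at least 1 array and were kept. All 8 receptors were among them, Ccr7 only through the Line 3 array. For a gene kept only through its brighter arrays, the filter itself favours a difference in that direction, in the marker counts below as well. Differences were counted at 2-fold or more, which is a rule of size and not a test. Triplets of intensities are given in the order wild type, Line 6, Line 3. Of the 17 receptor probe sets, 15 lay at or above the array's median on every array and 1 further set, that of Ccr7, on 1 array. Intensities of different probe sets are not comparable with one another, so no receptor's level is ranked against another's.

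**Figure D1:**
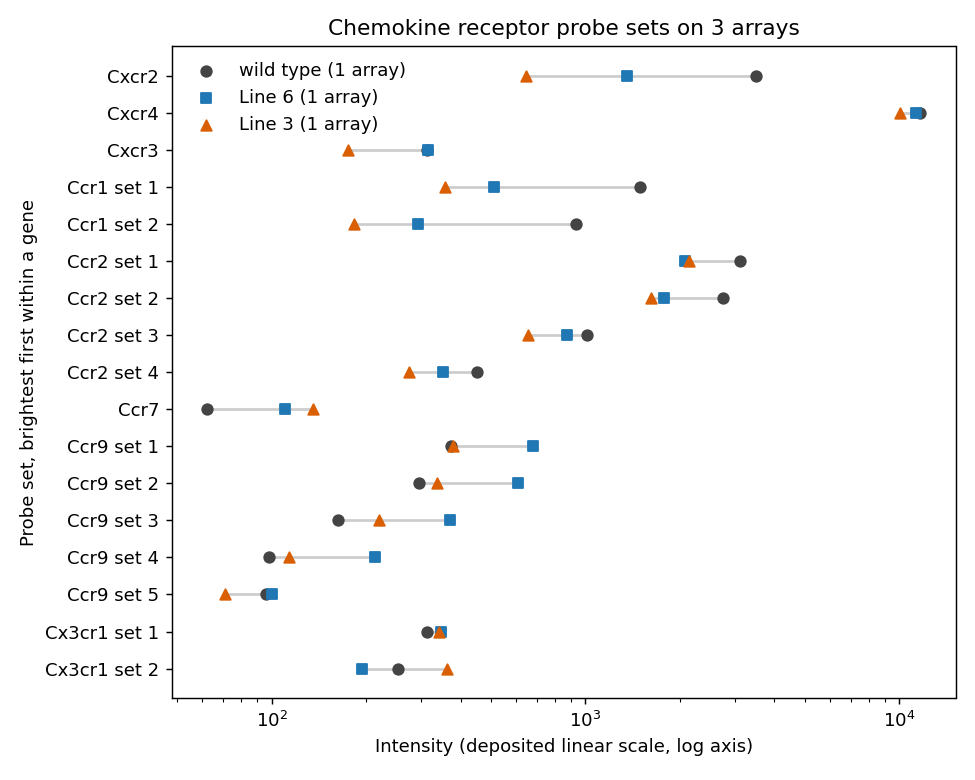
Intensity of each of the 17 chemokine receptor probe sets (rows, brightest first within a gene) on the wild type, Line 6 and Line 3 arrays, on a log axis, with 1 point per array. The Cxcr2 set and both Ccr1 sets lie far lower on the transgenic arrays, 4 of 5 Ccr9 sets stand out on the Line 6 array, and the 3 Cxcr4 points nearly coincide.

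Against wild type, the myeloid receptors Cxcr2 and Ccr1 were lower in both transgenic lines by more than 2-fold, and none of the 8 receptors was 2-fold higher in either line. In Line 6, 2 of 8 receptors were at least 2-fold lower, where 2.43% of all kept genes were, and 0 of 8 were 2-fold higher, where 2.6% of kept genes were. In Line 3 the same 2 receptors, Cxcr2 and Ccr1, were lower, where 4.47% of kept genes were, and 0 of 8 were higher, where 3.6% of kept genes were. Over both lines at once, 2.08% of kept genes were 2-fold lower and 1.35% were 2-fold higher. The receptors were chosen with earlier results of these data known. The shares therefore give scale only and are no test of the set. The median difference of the 8 receptors was -0.01 in Line 6 and -0.37 in Line 3, against 0.06 and 0.12 over all kept genes. Of all kept genes, 42.3% lay below wild type in Line 6 and 39.4% in Line 3. Since a single wild type array served both lines, any deviation of that array enters both differences.

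Cxcr2, the neutrophil receptor for Cxcl1, Cxcl2 and related chemokines, read 3500 on the wild type array, 1353 on the Line 6 array and 648 on that of Line 3. Wild type was the highest and Line 3 the lowest of the 3 arrays. The difference from wild type was -1.36 in Line 6, a 2.57-fold lower value, and -2.40 in Line 3, a 5.29-fold lower value. Across all processing settings tried, the Line 6 difference stayed between -1.60 and -1.31 and the Line 3 difference between -2.46 and -2.32. Only 1 probe set represents Cxcr2, so no second probe set bears on it.

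Ccr1, a receptor for Ccl3, Ccl5 and related chemokines on neutrophils, monocytes and their progenitors, read 1493 on the wild type array, 512 on the Line 6 array and 356 on that of Line 3 on its brighter probe set. The second probe set read 932, 292 and 183 and gave the same order of arrays. Differences from wild type were -1.52 in Line 6 and -2.02 in Line 3 on the brighter set, and -1.62 and -2.25 on the other, so that all 4 values were past 2-fold (2.86-fold and 4.06-fold on the brighter set). Among single-symbol probe sets as a whole, 1.57% were 2-fold lower in both lines. The receptor probe sets past that limit numbered 3 of 17, namely the Cxcr2 set and both Ccr1 sets, and the last 2 measure 1 transcript.

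Ccr2, the receptor for Ccl2 that lets monocytes leave the marrow, was lower in both lines by less than 2-fold on each of its 4 probe sets. The brightest read 3108 on the wild type array, 2080 on the Line 6 array and 2136 on that of Line 3, and the second 2750, 1778 and 1622. The third read 1013, 875 and 655, and the dimmest 450, 352 and 275. Wild type was the highest array on all 4 sets. Differences ran from -0.63 to -0.21 in Line 6 and from -0.76 to -0.54 in Line 3. The brightest set thus placed the lines 1.49-fold and 1.45-fold below wild type, short of the limit.

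Neutrophil and monocyte markers were lower along with these receptors on the same arrays. Of 16 listed neutrophil markers 13 were measured, and all 13 had lower intensities on both transgenic arrays. Of them 6 were past 2-fold on each, where 2.08% of kept genes were. After cyclic loess 1 of the 13 lay above wild type in Line 6. The 13 markers' intensities summed to 152782, 103440 and 79253, with medians of -0.89 and -1.58. None lay below 16 on any array although the sort removed cells with lineage markers. Examples past 2-fold are Mmp8, the neutrophil collagenase (-1.28 and -2.63), Itgb2l, a neutrophil integrin subunit (-1.92 and -2.82), and Csf3r, the G-CSF receptor (-1.35 and -1.77). Others on the list differed less, among them S100a8 (-0.18 and -0.45) and S100a9 (-0.04 and -0.25). S100a8 held the highest intensity of the wild type array (25535). Whether sets as bright as these can show a full difference was not tested. Of 12 listed monocyte markers 10 were measured, all 10 read lower on both transgenic arrays, 2 of them past 2-fold on each, and their sum was 50882, 34339 and 31546. Macrophage markers mostly went the other way. Of 11 kept genes 7 were past 2-fold above wild type on each transgenic array, where 1.35% of kept genes were. The sum over all 12 measured was 6551, 12327 and 14756, while Cd68 was lower in both lines (-0.405 and -0.345). In such bulk samples, fewer cells of a type and less RNA per cell cannot be told apart, and the part of cell composition in the receptor differences was not tested.

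The genes with the most similar pair of differences from wild type, by Euclidean distance over the 2 lines among 10866 kept genes, were named for the receptors past the limit in both. For Cxcr2 they were Adam8, a membrane metalloprotease gene of myeloid cells (-1.36 and -2.37, distance 0.03), Cd177, a neutrophil surface protein gene on the marker list (-1.39 and -2.34, distance 0.07), and Acta2, the smooth muscle actin gene (-1.43 and -2.43, distance 0.07). For Ccr1 they were Xdh (xanthine dehydrogenase, -1.55 and -1.97, distance 0.06), Il13ra1, an interleukin 13 receptor chain (-1.59 and -1.99, distance 0.08), and Igfbp6, an IGF-binding protein gene (-1.59 and -2.09, distance 0.10). Igfbp6 was dim (133, 33.6 and 19.0). It was kept only through the wild type array and lay near the pseudocount of 16 in Line 3. Likeness over 3 arrays is a weak description, and it rests on the shared wild type array.

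**Figure D2:**
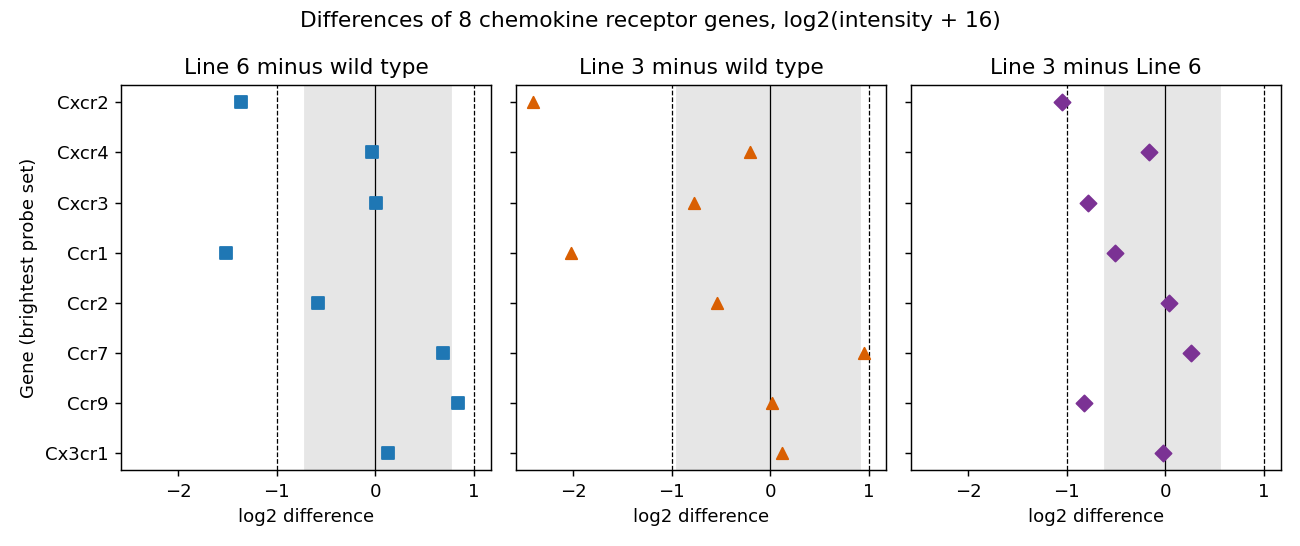
Differences of the brightest probe set of each of the 8 receptors on the log2(intensity + 16) scale, with 1 panel per contrast, dashed lines at 2-fold and a grey band from percentile 5 to 95 of all kept genes. Cxcr2 and Ccr1 lie below the dashed line in both transgenic lines, Ccr9 is high only in the Line 6 panel, and in the third panel Cxcr2 alone passes 2-fold.

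Cxcr4, the Cxcl12 receptor that retains stem and progenitor cells in the marrow, differed little between the arrays. It read 11635 on the wild type array, 11341 on the Line 6 array and 10089 on that of Line 3, in the top percent of its array each time (percentiles 99.47, 99.44 and 99.29). The differences from wild type were -0.04 in Line 6, 1.03-fold lower, and -0.20 in Line 3, 1.15-fold lower. In Line 6 the sign depended on the scaling, from -0.27 after centring on array medians to 0.01 after cyclic loess. Cxcl12, its ligand, which is made mainly by marrow stromal cells, read 519, 710 and 686.

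Ccr7, the receptor for Ccl19 and Ccl21 that guides dendritic cells and T cells to lymph nodes, was dim on all arrays and was brighter in both lines by less than 2-fold. It read 62.4 on the wild type array, 110 on the Line 6 array and 135 on that of Line 3. Wild type was the lowest array, and below its array's median. The difference was 0.68 in Line 6 and 0.95 in Line 3 (1.93-fold), and the latter passed 2-fold at 1.10 with a pseudocount of 1 and was 0.66 with a pseudocount of 64. Among conventional dendritic cell markers, 7 of which were kept, the median differences were 0.09 and 0.54, and Fscn1, a gene of mature dendritic cells, was lower (-1.45 and -1.70). Fscn1 was kept only through the wild type array (180, 56.1 and 44.3). Of 7 kept T cell markers 6 lay above wild type in Line 6 and 3 in Line 3, none by 2-fold. Of all kept genes, 57.7% and 60.6% lay above it.

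Cx3cr1, the receptor for fractalkine (Cx3cl1), gave no uniform direction. Intensities were 313, 345 and 341 on the brighter probe set and 254, 194 and 362 on the other. The sets placed Line 6 on opposite sides of wild type (0.13 and -0.36) and Line 3 above it (0.12 and 0.49). All values lay within 2-fold.

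The lines were then set against each other, with 1 array each. Cxcr2 was the 1 receptor of 8 that was at least 2-fold lower in Line 3 than in Line 6, where 1.58% of kept genes were, and 0 of 8 were higher, where 0.727% of kept genes were. Its difference of -1.04 was close to the limit and lay inside it at -0.84 after centring on array medians and at -0.99 with a pseudocount of 64. On the same arrays all 13 measured neutrophil markers were also lower in Line 3 than in Line 6, where 43.5% of all kept genes were. Their median was -0.49, against 0.05 over all kept genes. Ccr1 was lower in Line 3 than in Line 6 by less than 2-fold, with -0.51 on its brighter set and -0.63 on the other.

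Ccr9, the receptor for Ccl25 that draws lymphoid progenitors to the thymus and is also carried by plasmacytoid dendritic cells, was brightest in Line 6. Its brightest probe set read 373 on the wild type array, 682 on the Line 6 array and 378 on that of Line 3, and the next 296, 611 and 338. Further sets read 163, 369 and 220, and 98.2, 213 and 113. On these 4 sets Line 6 was the highest array and wild type the lowest, with Line 3 nearer to wild type. The dimmest set, below the median of every array, read 96.0, 100.3 and 71.2, so that wild type and Line 6 lay close together and Line 3 was the lowest.

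In Line 6 the 4 brighter Ccr9 sets differed from wild type by 0.84 to 1.11, and 3 of them were past 2-fold, where 3.89% of single-symbol probe sets were. The brightest set, which represents the gene, was not (1.79-fold). In Line 3 the same 4 sets differed from wild type by 0.02 to 0.40. Line 3 lay below Line 6 by -0.83 to -0.71 on these sets, within 2-fold. The 4 sets measure 1 gene and are not replicates. Beside this, all 11 kept B progenitor markers were highest on the Line 6 array, with summed intensities of 3752, 12195 and 4493. Of these markers 10 were past 2-fold above wild type in Line 6, where 2.6% of kept genes were. In Line 3 they went both ways, 7 above and 4 below wild type. Past 2-fold above wild type in Line 3 were 2, Rag2 (1.02) and Blnk (1.03), where 3.6% of kept genes were. Neither reached 2-fold after quantile normalization, centring on array medians or cyclic loess. Of 9 kept plasmacytoid dendritic cell markers, all 9 lay above wild type in Line 6 and 7 in Line 3, with medians of 0.57 and 0.39. Of all kept genes, 57.7% lay above wild type in Line 6 and 60.6% in Line 3. Spib, a transcription factor gene (551, 1551 and 574), was 2-fold higher in Line 6, and Siglech, a lectin gene of these cells, read 1195, 2164 and 1048. Others were highest on the Line 3 array, among them Tcf4 (1088, 1586 and 1703), Irf8 (3570, 4052 and 4668), Klk1 (227, 317 and 382) and Ly6d (721, 1076 and 1179). The part of these cells in the Ccr9 values was not tested.

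Cxcr3, the receptor for Cxcl9 and Cxcl10 and the only X-linked gene of the 8, was lower in Line 3 alone among the 3 arrays, by less than 2-fold. It read 312 on the wild type array, 314 on the Line 6 array and 175 on that of Line 3, with differences of 0.01 in Line 6 and -0.78 in Line 3 (1.71-fold lower). Line 3 lay -0.79 from Line 6. T cell markers went both ways in Line 3, with a median of 0.00 over 7 kept genes. Of the 7, 3 lay above wild type in Line 3 and 4 below. Cd3e, a chain of the T cell receptor complex (258, 292 and 133), Cd3d (295, 229 and 168) and Cd8a (104, 147 and 84.2) were lowest there. Cd3g (144, 175 and 144) was level with wild type in Line 3. Cd4 (99.4, 166 and 180), Thy1 (519, 772 and 771) and Cd28 (164, 286 and 282) lay above wild type in both lines. Of 9 kept NK cell markers 8 lay above wild type in Line 3, as did 60.6% of all kept genes, with summed intensities of 6573, 7469 and 9532.

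Ccr9, Ccr1 and Ccr2 lie within a run of 8 neighbouring protein-coding genes on chromosome 9 in the GRCm38.p6 gene order, which also holds Fyco1, Cxcr6, Xcr1, Ccr1l1 and Ccr3. Neighbours in this run did not share a direction. Ccr3, the eotaxin receptor of eosinophils and basophils, lies between Ccr1l1 and Ccr2 and read 736 on the wild type array, 1677 on the Line 6 array and 797 on that of Line 3. Its Line 6 difference of 1.17 was past 2-fold and became 0.93 after centring on array medians, and Line 3 lay -1.06 from Line 6. Mast cell and basophil markers had another order. Past 2-fold above wild type were 5 of 6 in Line 3 (3.6% of all kept genes) and 0 in Line 6 (2.6%). Ccr1, 2 genes away, was lower in both lines. Cxcr6 read 64.7, 144 and 113 (0.99 and 0.68), and Fyco1, a gene of vesicle transport that is no receptor, differed by -0.04 and -0.20.

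The rest of the receptor family was mostly dim. Of 10 other chemokine receptors 8 were measured and 2 were kept, Ccr3 and Cxcr6, and none was past 2-fold in both lines. Of 5 atypical receptors, which take up chemokines without G protein signalling or bind related ligands, 3 were kept and none was past 2-fold in both lines. Ccrl2 read 422, 134 and 245 (-1.55 in Line 6 and -0.75 in Line 3). Ackr4, a scavenger of Ccl19, Ccl21 and Ccl25, read 4180, 2944 and 2267, both differences within 2-fold.

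Other chemoattractant receptors went both ways. Of 12 listed receptors 8 were kept, with 3 above and 5 below wild type in Line 6 and 4 on each side in Line 3. None lay past 2-fold above wild type in either line. Below it, 1 lay past 2-fold in both lines, where 2.08% of kept genes did. That was Fpr2, a formyl peptide receptor, which read 8712 on the wild type array, 3029 on the Line 6 array and 1084 on that of Line 3 (-1.52 and -2.99). C5ar1, the C5a receptor, read 12176, 6908 and 4044 (-0.82 and -1.59), and Ltb4r1, the leukotriene B4 receptor, read 1504, 802 and 614 (-0.89 and -1.27). Both were past 2-fold in Line 3, and after centring on array medians in Line 6 too (-1.05 and -1.13). C3ar1, the C3a receptor (0.68 and 0.78), S1pr1, a sphingosine 1-phosphate receptor (0.75 and 0.66), and P2ry14, a receptor for nucleotide sugars (0.80 and 0.88), lay above wild type in both lines, within 2-fold. Median differences over the list were -0.33 (Line 6) and -0.24 (Line 3), beside 0.06 and 0.12 over all kept genes.

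**Figure D3:**
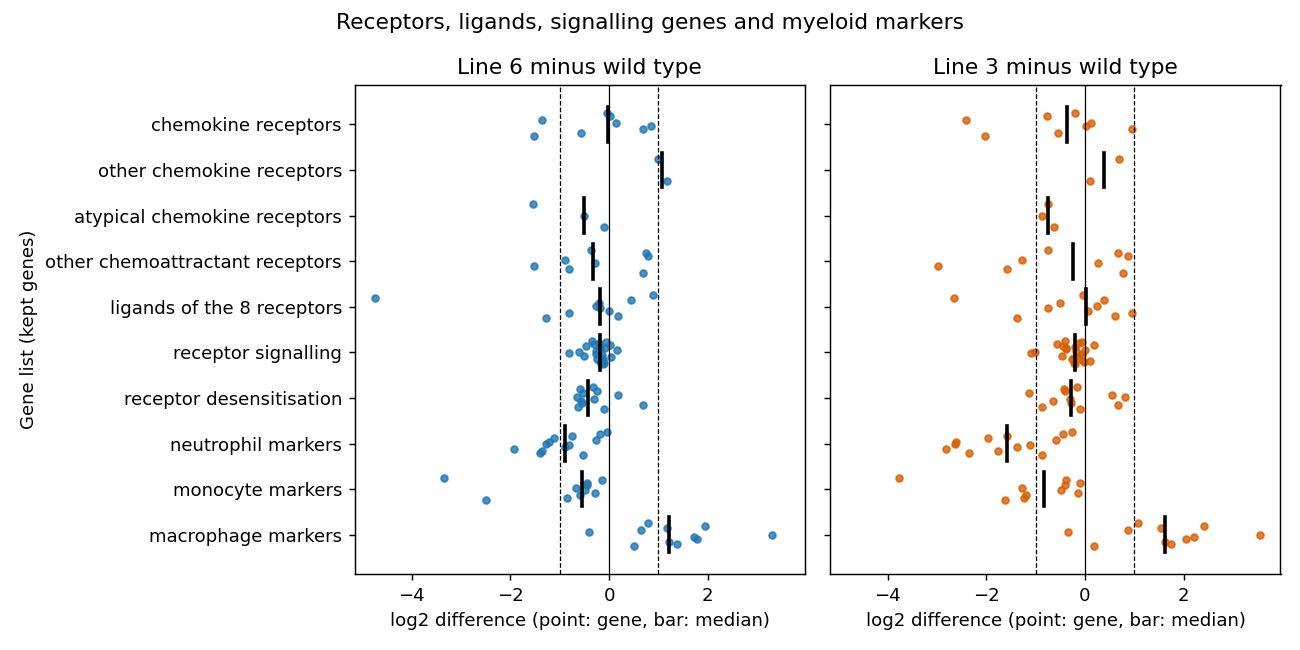
Differences of Line 6 (left) and Line 3 (right) from wild type for kept genes of the receptor lists, their ligands, signalling genes and myeloid markers, with 1 point per gene, a black bar at each list's median and dashed lines at 2-fold. Neutrophil and monocyte markers lie wholly below 0 in both panels, macrophage markers mostly above 0, and the 8 receptors spread to both sides.

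Among 20 listed ligands of the 8 receptors 18 were measured and 10 were kept. Of the 10, 2 lay past 2-fold below wild type in both lines, where 2.08% of kept genes did. These were Cxcl2, a Cxcr2 ligand (3512, 116 and 543), and Ccl2, the Ccr2 ligand (153, 53.4 and 49.5). Ppbp, the other kept Cxcr2 ligand and also a platelet gene on the megakaryocyte list, read 189, 363 and 185 and so was highest in Line 6. Ccl2 was kept only through the wild type array, a route that itself favours lower values in the lines. It lay inside 2-fold in both lines with a pseudocount of 64 (-0.89 and -0.94). Ccl3, a Ccr1 ligand, read 4638, 2635 and 9008 and lay 1.77 higher in Line 3 than in Line 6, opposite in order to Ccr1. Of the other Ccr1 ligands, Ccl6 read 5777, 5119 and 3442, Ccl9 4436, 3697 and 5266, and Ccl5 1633, 1633 and 1708, so that the ligands of this receptor shared no order. Cxcl10, a Cxcr3 ligand, read 162, 138 and 110, and Ccl25, the Ccr9 ligand, 132, 151 and 211. The ligands' medians were -0.19 in Line 6 and 0.02 in Line 3.

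Genes that carry the receptors' signal stayed mostly within 2-fold. All 24 listed signalling genes were kept, 0 were past 2-fold in both lines, and 21 lay below wild type in each line, where 42.3% and 39.4% of all kept genes did, with medians of -0.18 and -0.20. Gnai2, the main inhibitory G protein alpha subunit of leukocytes, read 10587, 8959 and 8771. The 2 of 24 past the limit, where 4.47% of kept genes were, were regulatory subunits of PI3 kinase gamma, lower in Line 3, Pik3r5 (1075, 604 and 492, a difference of -1.10) and Pik3r6 (2783, 1827 and 1376, a difference of -1.01). Pik3r6 lay inside 2-fold after quantile normalization (-0.99) and with a pseudocount of 64 (-0.98).

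Of 14 listed genes of receptor desensitisation 12 were kept, none was past 2-fold in both lines, and the medians were -0.43 and -0.29. Arrb2, the beta-arrestin 2 gene, read 8168, 5279 and 4447. Rgs14 was past 2-fold lower in Line 3 (584, 399 and 257, a difference of -1.14). Rgs1, a GTPase activator that dampens chemokine receptor signals, read 1958, 1242 and 3473, and lay 1.47 higher in Line 3 than in Line 6.

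**Figure D4:**
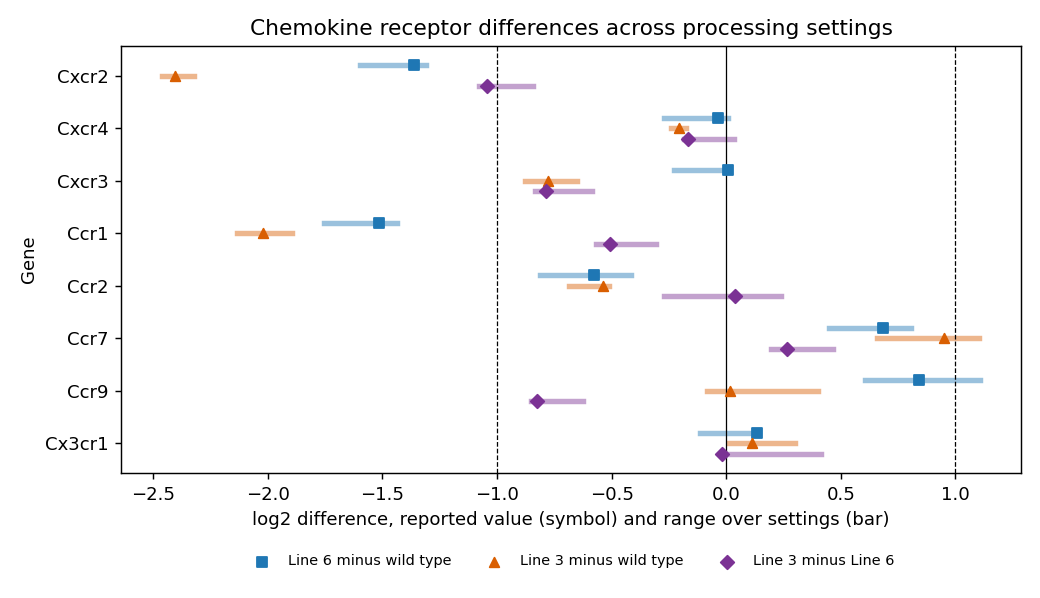
Reported log2 difference (symbol) and its range over up to 10 processing settings (bar) for each receptor and contrast, with dashed lines at 2-fold. The Cxcr2 and Ccr1 bars against wild type lie wholly beyond 2-fold, and the bars of Ccr9 in Line 6, Ccr7 in Line 3 and Cxcr2 between the lines cross it.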

How the data were processed

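Per the labels' protocols, Trizol-extracted total RNA was amplified, labelled with biotin and put on Affymetrix GeneChip arrays. The authors deposited linear intensities, 1 for each probe set on each array. No summary method, scaling or software was given in the sources used here. A prior scaling is inferred from the values, whose mean was 497 on each of the 3 arrays once 2% had been trimmed at both ends. There were no detection calls, and between 22.5% and 24.4% of probe sets lay below 16. With 3 arrays in all, their number limits the precision.

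Probe sets were named through the platform annotation, with symbols updated by Entrez identifier for 34741 of 34945. Values were taken as log2(intensity + 16), with the brightest probe set per gene, and genes were kept when they reached the array median on at least 1 array. The text names all receptors, up to 6 genes per list past 2-fold in any contrast, the 3 nearest genes of each receptor lower in both lines, and 3 genes as array checks. Further genes were named after their values were seen, among them Cxcr6, Fyco1, Ackr4, C3ar1, S1pr1, P2ry14, Ppbp, Ccl5, Ccl6, Ccl9, Blnk, Tcf4, Irf8, Klk1, Ly6d, Cd4, Thy1, Cd28, Cxcl12, Cxcl10, Ccl25, Gnai2 and Arrb2. S100a8, S100a9, Cd68, Cd3d, Cd3g and Cd8a were named in the same way. The receptors, lists and motifs were chosen with earlier results of these data known. The code was checked on simulated copies of the wild type array, with shifts well past 2-fold seeded in bright genes. That check does not bear on dim genes or on the noise between real arrays. Alternatives were 3 other scalings, other filters, probe set rules, pseudocounts and fold limits. The tools were R 4.3.3 with limma 3.58.1 for cyclic loess, and Python 3.11.15 with scipy 1.17.1, pandas 2.3.3, numpy 2.4.6 and, for plots, matplotlib 3.10.9.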

Additional observations from a re-analysis of the deposited data

How the results depend on the processing

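Of 207 alternative values of single receptor differences, 202 stayed on the same side of 2-fold, 5 crossed it and none past 2-fold changed sign. Cxcr2 and Ccr1 stayed past 2-fold lower in both lines under every alternative run other than the 3-fold limit, where 0 receptors were lower in Line 6 and both remained in Line 3. Counts of higher receptors in Line 6 went from 0 to 1 (Ccr9) with the median over a gene's probe sets (1.11) and with plain _at ones (1.01), and to 2 at 1.5-fold. In Line 3 that count became 1 (Ccr7) with a pseudocount of 1 and at 1.5-fold. The count of receptors lower in Line 3 than in Line 6 went from 1 to 0 after centring on array medians, with a pseudocount of 64 and at 3-fold, and to 3 at 1.5-fold. Centring moved the median of all kept genes from 0.06 to -0.17 in Line 6 and from 0.05 to 0.25 between the lines, so differences in Line 6 are relative to that shift. Causes were not tested beyond these constructions. The filter at percentile 75 left 5 receptors. No paired analysis was possible because each group had 1 array. Without detection calls, signal over background could not be judged, which bears most on Ccr7 and the dimmest Ccr9 probe set.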
